A study of Mus musculus with 5 samples.

Results

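WNT and BMP signals in the lung were followed through 10 of the 31053 genes counted, picked by name for their place in these pathways. They were the WNT ligands Wnt2, Wnt5a and Wnt7b, the R-spondin Rspo3, the WNT target Axin2, the BMP ligands Bmp4 and Bmp6, the BMP receptor Bmpr2, the BMP target Id1 and the BMP antagonist Grem1. Their levels were read from unique molecular identifiers (UMIs, each tagging 1 captured RNA molecule), summed over the cells of a class and scaled to a class total of 1000000 UMIs (CPM). Cells were kept from 700 detected genes upward where mitochondrial UMIs made up 0.1 to 15% of the total, and 24769 of these 29475 cells fell into 3 classes set by marker genes. Alveolar type 2 (AT2) cells, the surfactant-producing epithelium of the alveolus, had Sftpc at 5% or more of their UMIs and at least 1 Epcam UMI, and no Cdh5, Pecam1 or Col1a2 (1916 cells). Endothelial cells had at least 2 UMIs of Cdh5 and Pecam1 and neither Epcam nor Col1a2 (21306 cells). Mesenchymal cells had at least 2 Col1a2 UMIs and none of Cdh5, Pecam1 or Epcam (1547 cells). None of the 10 genes entered a gate.

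The study asked how loss of β1 integrin in AT2 cells changes the lung after lipopolysaccharide (LPS), the bacterial cell wall component used here to injure the lung. β1 AT2-KO mice carried SP-C rtTA, TetO-Cre and Itgb1 fl/fl, and β1 fl/fl littermates carried Itgb1 fl/fl without rtTA and Cre. Doxycycline was given from postnatal day 28 for 4 weeks and stopped for 1 month, and at 3 months of age the mice received a single intratracheal dose of LPS at 3 µg/g or of PBS. Viable CD45-Ter119- cells were sorted at day 7 from β1 fl/fl mice given LPS, β1 AT2-KO mice given LPS and β1 AT2-KO mice given PBS, and at day 21 from β1 fl/fl and β1 AT2-KO mice given LPS. EPCAM+ cells were added at day 21. Because the SP-C promoter drives the Cre, endothelial and mesenchymal cells of the knockout keep Itgb1. Each of the 5 groups was 1 library of 3 pooled mice told apart by hashtag antibodies, so a library and its condition cannot be told apart, and p-values measure the spread between mice of 1 pool. No β1 fl/fl mice given PBS were analysed here.

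WNT ligands are secreted lipid-modified proteins that act over short distances. They bind Frizzled receptors and LRP co-receptors, which frees β-catenin to switch on targets such as Axin2, and R-spondins strengthen the signal by holding Frizzled receptors at the surface. BMP ligands bind receptor complexes that contain Bmpr2, which phosphorylate SMAD proteins and switch on Id genes, and Grem1 binds BMP ligands and keeps them from the receptors. In the alveolus WNT signals from fibroblasts are known for maintaining AT2 progenitors, and BMP signalling is known for restraining AT2 proliferation and for keeping the pulmonary endothelium quiescent.

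The 5 libraries held 2222 to 8660 passing cells and 9375420 to 30914174 UMIs, with a single hashtag on 48.6 to 77.2% of passing cells. Fewer mesenchymal cells were tagged. At day 7 the control mice held 23, 35 and 106 of 395 mesenchymal cells. The LPS-treated knockouts held 32, 56 and 135 of 553. In these libraries tagged mesenchyme held 134 of 164 and 352 of 389 Grem1 UMIs. Of Wnt2 UMIs it held 10 of 58 and 27 of 70. Mesenchymal values per mouse thus describe the tagged cells only. Itgb1, the deleted gene, was at 241, 247 and 320 CPM in AT2 cells of the day 7 β1 fl/fl mice and 209, 165 and 207 CPM in the day 7 β1 AT2-KO mice given LPS. At day 21 it was 352, 327 and 370.2 CPM against 145, 201 and 150 CPM, so every knockout mouse lay below the controls of its day. Endothelium held Itgb1 at 748 to 1071 CPM in the 5 libraries. Among knockout mice given PBS, endothelial Itgb1 was 498 CPM in mouse 2 beside 873 and 844 CPM in mice 1 and 3. Xist and Y-linked genes split the day 7 LPS mice by genotype, with Xist at 337 to 345 CPM in endothelium of the 3 controls and 0 in the 3 knockouts, so sex and genotype cannot be told apart at day 7. Sex was also unbalanced elsewhere. In endothelium, Y-linked genes were high and Xist low in 2 of 3 knockout mice given PBS. The same held in 1 of 3 day 21 controls and 2 of 3 day 21 knockouts. The part of sex in the PBS and day 21 comparisons was not tested. Day 21 control mouse 1 read Xist and Y-linked genes at 67.9 and 113 CPM in endothelium. It read 57.4 and 51.9 CPM in AT2 cells and 360 and 49.1 CPM in mesenchyme. The mice are hashtag groups, and whether a tag also held cells of other animals was not tested. The summed level of 7 AT2 markers was 47737 to 55925 CPM in AT2 cells and 249 to 2935 CPM in endothelium. 7 mesenchymal markers summed to 15437 to 32631 CPM in mesenchyme, 41 to 266 CPM in endothelium and 12 to 89 CPM in AT2 cells, and immune markers stayed at 11 CPM or less in each class. In the PBS library, the mice had at most 6 tagged AT2 cells and 4 tagged mesenchymal cells, under the 10 cells required of a mouse, so its AT2 and mesenchymal values are given for the whole library without a test.

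In the GRCm38 annotation the genes lay apart, Wnt2 at chr6:17988940-18030585, Wnt5a at chr14:28504750-28527448, Wnt7b at chr15:85535437-85582473, Rspo3 at chr10:29452416-29535867, Axin2 at chr11:108920349-108950783, Bmp4 at chr14:46383520-46390669, Bmp6 at chr13:38345107-38500302, Bmpr2 at chr1:59763400-59879014, Id1 at chr2:152736251-152737410 and Grem1 at chr2:113746164-113758646. The promoters of Bmp4, Axin2 and Grem1 are printed because the genotype comparisons turned on the first, the second is the WNT readout, and the third was read almost only from mesenchyme. Each is the 250 bases before the RefSeq start, read on the strand of the gene from a RefSeq promoter table of GRCm38.p6, and capitals mark the SMAD-binding letters GGCGCC and CAGAC and the TCF letters CTTTGAA and CTTTGAT on either strand.
Bmp4 (chr14:46390670-46390919, minus strand): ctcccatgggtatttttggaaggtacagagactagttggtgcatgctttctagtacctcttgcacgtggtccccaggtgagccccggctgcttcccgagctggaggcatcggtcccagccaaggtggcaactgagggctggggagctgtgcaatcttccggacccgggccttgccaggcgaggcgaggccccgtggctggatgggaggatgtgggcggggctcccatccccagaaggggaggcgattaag
Axin2 (chr11:108920099-108920348, plus strand): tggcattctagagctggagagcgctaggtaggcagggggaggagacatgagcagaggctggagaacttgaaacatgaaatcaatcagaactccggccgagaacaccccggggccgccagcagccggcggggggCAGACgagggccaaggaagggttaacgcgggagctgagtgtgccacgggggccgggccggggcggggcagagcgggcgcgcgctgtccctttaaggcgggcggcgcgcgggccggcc
Grem1 (chr2:113758649-113758898, minus strand): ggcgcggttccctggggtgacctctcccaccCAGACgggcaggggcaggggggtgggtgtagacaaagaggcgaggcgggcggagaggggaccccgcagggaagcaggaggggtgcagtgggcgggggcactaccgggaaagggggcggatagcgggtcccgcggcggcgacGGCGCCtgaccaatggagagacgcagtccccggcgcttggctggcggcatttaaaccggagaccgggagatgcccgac
None of the 4 motifs occurred in the Bmp4 window, CAGAC occurred once in the Axin2 window, and CAGAC and GGCGCC each occurred once in the Grem1 window. Over 32851 promoters of this length, GGCGCC was found in 9.59%, CAGAC in 42.2%, CTTTGAA in 4.46% and CTTTGAT in 3.21%. The windows of Bmp6, Bmpr2 and Wnt2 overlapped exons and are not shown. Id1, Rspo3, Wnt5a and Wnt7b were not matched in that table.

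The 3 WNT ligands were read from different classes, Wnt2 and Wnt5a from mesenchyme and Wnt7b from AT2 cells. Wnt5a, a ligand that mostly signals without β-catenin, averaged 98.3 ± 51.9 CPM (SD, n = 11 mice) in mesenchyme against 0.338 in AT2 cells and 1.85 in endothelium of the same mice. Mesenchyme was higher than endothelium in 11 of 11 mice, and the difference on the log2(CPM + 10) scale, endothelium minus mesenchyme, was -3.01 ± 0.28 (SE, exact two-sided sign-flip permutation test over mice, Benjamini-Hochberg adjusted over 30 tests, adjusted p = 0.00266). Wnt2, a fibroblast ligand that signals through β-catenin, averaged 20.8 ± 17.4 CPM in mesenchyme, 0.813 in endothelium and 0 in AT2 cells, and 9 of 11 mice were higher in mesenchyme than in endothelium (adjusted p = 0.00689, exact permutation). Wnt7b, an epithelial ligand, averaged 5.68 ± 4.67 CPM in AT2 cells and 0.0506 in endothelium, higher in AT2 cells in 10 of 12 mice (adjusted p = 0.00488, exact permutation). Wnt7b rested on 2 to 66 UMIs per library in AT2 cells. Without the day 7 library of β1 AT2-KO mice given LPS, the calls of Wnt2 against AT2 cells and endothelium, of Wnt7b against mesenchyme and of Rspo3 between AT2 cells and mesenchyme were lost (adjusted p = 0.0521, exact permutation).

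Rspo3, which amplifies WNT signals, and Axin2, which feeds back on the same pathway, were not limited to the classes that held the ligands. Rspo3 averaged 35.5 ± 32.9 CPM in mesenchyme (n = 11 mice) and 14.8 ± 7.70 CPM in endothelium (n = 12 mice) and was at 0 in AT2 cells of every mouse. Endothelium exceeded AT2 cells in 12 of 12 mice (adjusted p = 0.00266, exact permutation), whereas the mesenchymal and endothelial levels of Rspo3 did not separate (log2 difference, endothelium minus mesenchyme, -0.56 ± 0.46, adjusted p = 0.296, exact permutation). Axin2 was higher in AT2 cells (15.2 ± 5.78 CPM) than in endothelium (10.5 ± 5.02 CPM) in 9 of 12 mice and higher in mesenchyme (27.5 ± 17.5 CPM) than in endothelium in 9 of 11 (adjusted p = 0.0204 for each, exact permutation). AT2 cells and mesenchyme did not differ in Axin2 beyond their spread (-0.45 ± 0.24, adjusted p = 0.110, exact permutation). The Axin2 difference between endothelium and mesenchyme kept its call in 3 of 8 alternatives, and that between AT2 cells and endothelium lost it without any 1 of the libraries of day 7 β1 AT2-KO mice given LPS, day 21 β1 fl/fl mice or day 21 β1 AT2-KO mice.

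The BMP genes were split between an endothelial group, Bmp6, Bmpr2 and Id1, and Bmp4, which was highest outside the endothelium. Bmp6, a ligand made by endothelium in several organs, averaged 309 ± 87.4 CPM in endothelium and 0.772 ± 1.21 in AT2 cells (n = 12 mice each). Bmpr2, the type 2 receptor, averaged 897 ± 152 CPM in endothelium, 144 in mesenchyme and 82.3 ± 31.5 in AT2 cells. Id1, a transcriptional inhibitor induced by BMP signals, averaged 498 ± 53.1 CPM in endothelium and 57.5 ± 36.7 in AT2 cells. Endothelium exceeded AT2 cells in 12 of 12 mice for Bmp6, Bmpr2 and Id1, with AT2 minus endothelium at -4.85, -3.38 and -3.095 on the log2(CPM + 10) scale (adjusted p = 0.00266 each, exact permutation). AT2 cells and mesenchyme did not separate in Id1 (adjusted p = 0.783, exact permutation), and Bmpr2 was higher in mesenchyme in 9 of 11 mice (adjusted p = 0.0114, exact permutation), a call lost without either day 7 LPS library.

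Bmp4, a ligand of the same receptors, averaged 45.5 ± 18.9 CPM in AT2 cells against 16.1 ± 7.07 in endothelium and was higher in AT2 cells in 11 of 12 mice (1.04 ± 0.14 on the log2(CPM + 10) scale, adjusted p = 0.00266, exact permutation). Mesenchyme (46.2 ± 38.3 CPM) also exceeded endothelium, in 11 of 11 mice, and AT2 cells and mesenchyme of the tagged mice did not separate in Bmp4 (0.09 ± 0.24, adjusted p = 0.832, exact permutation). Over whole libraries, which add cells without a single tag, mesenchyme read higher than AT2 cells at day 21 (105 against 54.7 CPM in controls, 114 against 40.0 CPM in knockouts) and with PBS (120 against 27.6 CPM), and the 2 classes were closer in the day 7 LPS libraries (39.7 against 26.7 CPM in controls, 58.2 against 58.6 CPM in knockouts). In cells thinned to 1500 UMIs, a Bmp4 UMI was found in 4.27, 6.80, 0, 6.25 and 5.66% of AT2 cells of the 5 libraries and in 1.22 to 3.12% of endothelial cells. Before thinning the shares were 21.0 to 36.9% in AT2 cells and 2.12 to 5.36% in endothelium, at median depths of 7497 to 11131 and 1964 to 2445.5 UMIs per cell. Grem1 was nearly limited to mesenchyme, at 87.7 ± 89.2 CPM, with 0.446 CPM in endothelium and 0.483 in AT2 cells, and exceeded both in 7 of 11 mice (adjusted p = 0.0204, exact permutation). The mesenchymal call of Grem1 was lost without either day 7 LPS library.

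**Figure D1:**
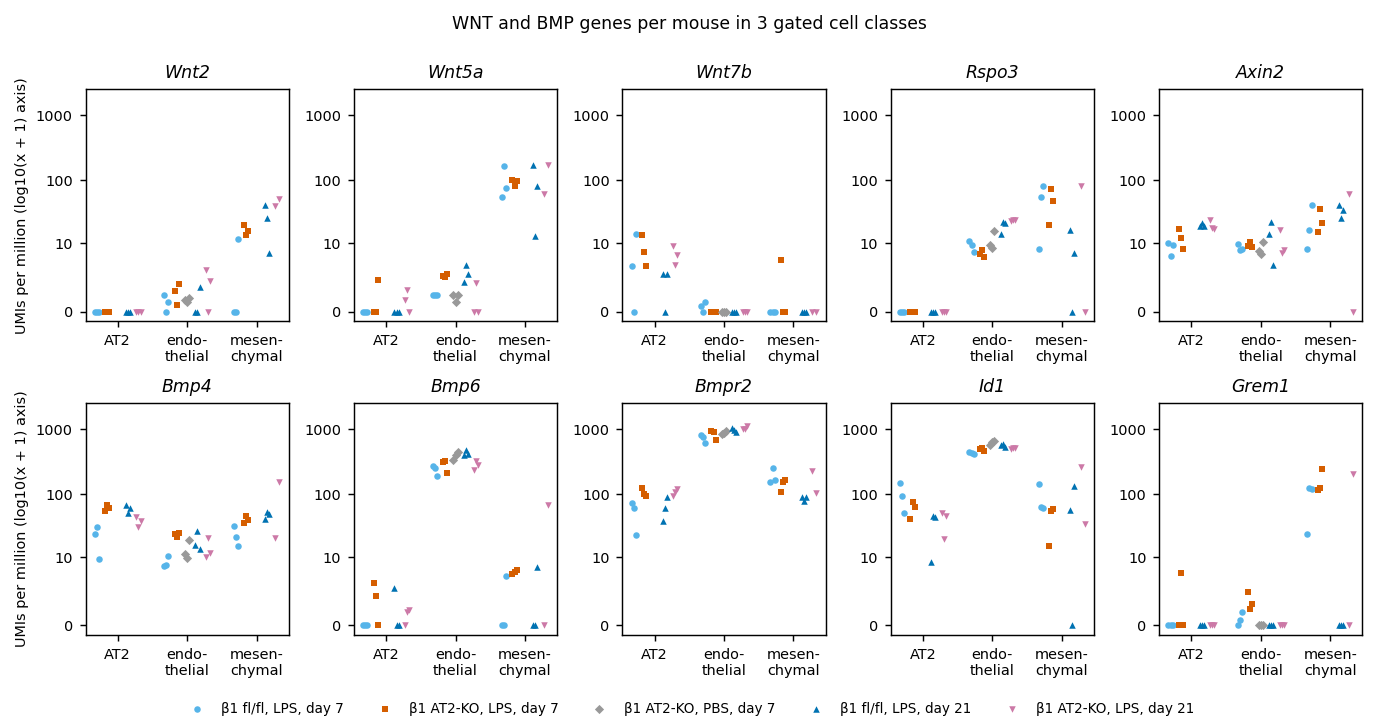
CPM of each of the 10 genes (1 panel each, log10 of CPM + 1 on the vertical axis) in AT2, endothelial and mesenchymal cells, 1 point per mouse with at least 10 gated cells, with a marker for each of the 5 groups. Bmp6, Bmpr2 and Id1 sit highest in endothelium, Wnt5a and Grem1 in mesenchyme, and Bmp4 lies higher in AT2 cells and mesenchyme than in endothelium.

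Within the endothelium, 2 capillary gates held different members. The Car4/Ednrb gate took cells with at least 2 UMIs of Car4 and Ednrb and none of Gpihbp1, Prox1 or Mmrn1. The Gpihbp1 gate took cells with at least 2 Gpihbp1 UMIs and none of Car4, Ednrb, Prox1 or Mmrn1. Car4 and Ednrb are genes of the large capillary cells known as aerocytes, and Gpihbp1 is a gene of the general capillary cells. The gates made up 8.69 to 40.0% and 18.6 to 33.6% of endothelial cells per library, and many endothelial cells entered neither. Rspo3 averaged 47.4 ± 21.1 CPM (SD, n = 15 mice) in the Car4/Ednrb gate and 0.674 CPM in the Gpihbp1 gate and was higher in the former in 15 of 15 mice (2.35 ± 0.15 on the log2(CPM + 10) scale, exact two-sided sign-flip permutation over mice, adjusted p = 0.000407 over 20 tests, from the smallest p that 15 mice allow). Bmp4 ran the other way, with 3.47 CPM in the Car4/Ednrb gate and 21.3 in the Gpihbp1 gate, and so did Bmp6, with 72.6 and 450.1 CPM (15 of 15 mice and adjusted p = 0.000407 for both genes, exact permutation). Axin2 was at 2.13 CPM in the Car4/Ednrb gate and 11.1 in the Gpihbp1 gate, higher in the latter in 13 of 15 mice (adjusted p = 0.00488, exact permutation). Id1 differed little though in 13 of 15 mice, 489 against 571 CPM (adjusted p = 0.00458, exact permutation), and Bmpr2 was not separated, at 905 and 827 CPM (0.12 ± 0.11, adjusted p = 0.620, exact permutation). Cells with Gja5 or Bmx, arterial genes, were 0.490 to 2.60% of the endothelium and held Bmp4 at 38.5 to 77.8 CPM per library from 1 to 21 UMIs. Cells with Slc6a2, Ackr1 or Nr2f2, venous genes, held it at 30.0 to 81.2 CPM from 2 to 23 UMIs. Rspo3 was also read from the few cells with Prox1 or Mmrn1, lymphatic genes, at 71.3, 54.6, 34.4, 58.2 and 102 CPM from 34, 14, 1, 3 and 2 UMIs.

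**Figure D2:**
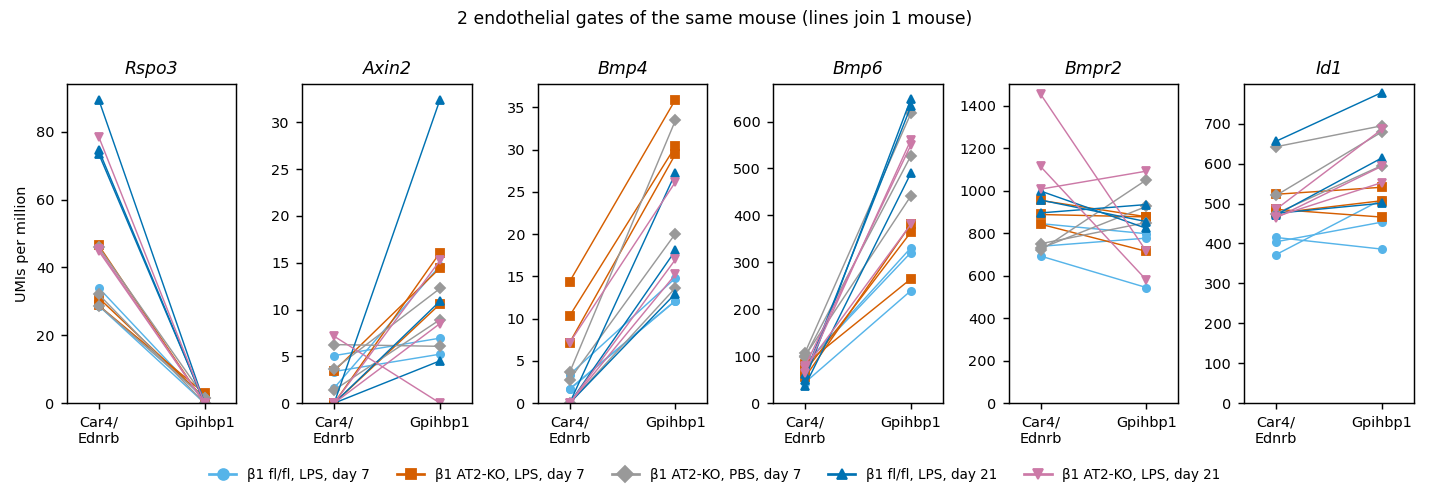
CPM of Rspo3, Axin2, Bmp4, Bmp6, Bmpr2 and Id1 in the Car4/Ednrb and Gpihbp1 gates of the endothelium, with a line joining the values of 1 mouse (15 mice). Rspo3 falls and Bmp4 and Bmp6 rise from the first gate to the second in all 15 mice, and Bmpr2 lines cross.

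Within the mesenchyme, the ligand Wnt2 was read from cells with Tcf21 or Npnt, genes of alveolar fibroblasts, at 59.6, 53.8, 111, 178 and 128 CPM in the 5 libraries, and from cells with Pi16 or Dpt, genes of adventitial fibroblasts, at 4.03, 8.14, 0, 0 and 8.59 CPM. Over the 3 tagged mice with enough cells in both gates, Wnt2 averaged 8.46 CPM in the Tcf21/Npnt gate and 6.74 in the Pi16/Dpt gate, with 1 mouse higher each way, and in the Tcf21/Npnt gate it had 2 UMIs in the control mouse and 0 in both knockout mice. Between these 2 gates, Grem1 and Rspo3 lay higher in Pi16/Dpt, at 331 against 52.4 CPM and 114 against 18.0 CPM on average over the same 3 mice. All 3 were day 7 LPS mice. The direction was shared by 3 of 3 mice for each gene, and 3 mice cannot give an exact permutation p under 0.25. Neither gene was limited to these gates. In the day 7 knockout LPS library, Grem1 was at 368 CPM in an Acta2/Tagln gate (25 cells) and 153 CPM in a Notch3/Cspg4/Higd1b gate (21 cells). There it was at 216 CPM in the Pi16/Dpt gate and 29.4 CPM in the Tcf21/Npnt gate. Rspo3 in the Acta2/Tagln gate was at 76.3 CPM in day 7 controls and 0 in day 7 LPS knockouts. Bmp4 in the Tcf21/Npnt gate was at 63.3, 112.5, 240.3, 190 and 182 CPM per library, lowest in the 2 day 7 LPS libraries.

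Bmp4 was the only member called in AT2 cells, and its direction between genotypes turned over between day 7 and day 21. Across genes, each comparison was fitted with edgeR's quasi-likelihood test on per-mouse sums, with Benjamini-Hochberg adjustment over all genes tested and a call at adjusted p under 0.05. At day 7 after LPS, Bmp4 was at 24.1, 30.8 and 9.40 CPM in AT2 cells of β1 fl/fl mice, from 12, 5 and 2 UMIs, and at 54.9, 69.1 and 60.8 CPM in β1 AT2-KO mice, from 16, 39 and 30 UMIs. The groups did not overlap (21.4 ± 10.95 against 61.6 ± 7.14 CPM, n = 3 each), and the log2 fold change was 1.42 ± 0.35 (SE, adjusted p = 0.0334). At day 21, Bmp4 was at 68.3, 52.0 and 61.7 CPM in β1 fl/fl mice and 45.1, 31.2 and 38.2 CPM in β1 AT2-KO mice. Again the groups did not overlap (60.7 ± 8.19 against 38.2 ± 6.98 CPM), now with the knockout lower, by -0.78 ± 0.20 on the log2 scale (adjusted p = 0.0321). The difference between the 2 genotype effects was itself called, at -2.20 ± 0.40 (adjusted p = 0.0030). Between day 7 and day 21 the control mean moved from 21.4 to 60.7 CPM and the knockout mean from 61.6 to 38.2 CPM.

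These Bmp4 calls differed in how they bore the removal of single mice. The difference of genotype effects was called without each mouse in turn, with log2 values from -2.46 to -1.91 over the 18 alternatives with a value. The day 7 call was lost without β1 fl/fl mouse 1 (adjusted p = 0.151) or 3 (log2 1.13, 0.116) and without β1 AT2-KO mouse 2 (0.149) or 3 (0.106), and under DESeq2 (0.241). The day 21 call was lost without β1 fl/fl mouse 1 (adjusted p = 0.122) or 3 (0.188) and without β1 AT2-KO mouse 2 (0.0891) or 3 (0.0826), and with hashtags assigned by the largest tag (0.181). Fewer cells with Bmp4 and less Bmp4 RNA per cell cannot be told apart in these sums. The AT2 gate held 18 to 52 cells per β1 fl/fl mouse and 35 to 66 per knockout mouse at day 7. Beside the Bmp4 values, 7 endothelial markers summed to 105 and 109 CPM in AT2 cells of the day 7 control and knockout libraries and 47 and 49 CPM at day 21, and 7 mesenchymal markers to 28 and 89 CPM and to 24 and 25 CPM. Their part in the difference was not tested.

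**Figure D3:**
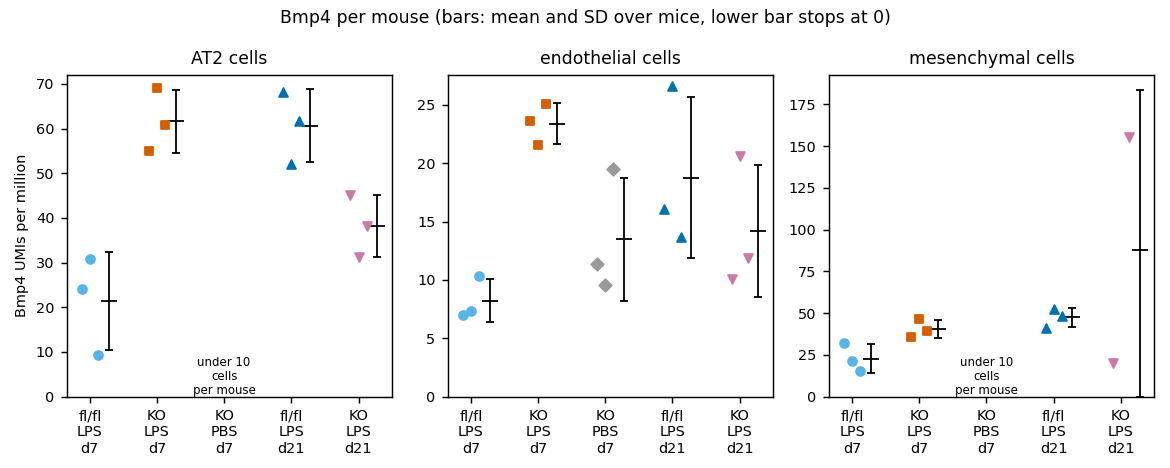
Bmp4 CPM per mouse (points), with the mean and SD of each group, in AT2, endothelial and mesenchymal cells. In AT2 cells the β1 AT2-KO mice lie above the β1 fl/fl mice at day 7 (54.9 to 69.1 against 9.40 to 30.8 CPM) and below them at day 21 (31.2 to 45.1 against 52.0 to 68.3 CPM).

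The receptor Bmpr2 and the target Id1 in AT2 cells did not reach the threshold. Bmpr2 was at 72.2, 61.7 and 23.5 CPM in day 7 β1 fl/fl mice and 124, 99.3 and 93.2 CPM in day 7 β1 AT2-KO mice. Its log2 fold change was 0.75 ± 0.28 (edgeR, adjusted p = 0.233). At day 21 it was 38.2, 61.2 and 89.7 against 95.4, 109 and 121 CPM (0.57 ± 0.20, edgeR, adjusted p = 0.125). The Bmpr2 groups did not overlap on either day, with the knockout higher. Over whole libraries its log2 ratio was 0.81 at day 7 (counting interval 0.44 to 1.21) and 0.68 at day 21 (0.42 to 0.97). Id1 was at 150.3, 92.5 and 51.7 CPM in day 7 controls and 41.2, 76.2 and 62.8 CPM in day 7 knockouts, and the groups overlapped (-0.90 ± 0.30, adjusted p = 0.167). At day 21 Id1 was at 8.19, 45.9 and 44.9 CPM in controls and 50.8, 20 and 45.5 CPM in knockouts (0.07 ± 0.37, adjusted p = 0.954). 1 of the 3 members tested was called at day 7, where 2.04% of 4715 genes were, and 1 of 4 at day 21, where 4.00% of 8308 genes were. For the difference between the effects it was 1 of 3, where 0.965% of 6323 genes were called.

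The WNT genes read in AT2 cells were at low levels. Axin2, at 10.0, 6.17 and 9.40 CPM in day 7 controls and 17.2, 12.4 and 8.10 CPM in day 7 knockouts, fell under the count filter at day 7. At day 21 Axin2 was at 19.1, 21.4 and 19.6 CPM in controls and 24.1, 17.6 and 17.2 CPM in knockouts, and the groups overlapped (-0.13 ± 0.30, adjusted p = 0.877). Wnt7b was at 4.01, 0 and 14.1 CPM in day 7 controls, 13.7, 7.09 and 4.05 CPM in day 7 knockouts, 2.73, 0 and 2.80 CPM in day 21 controls and 9.23, 4.12 and 6.24 CPM in day 21 knockouts, below the filter throughout.

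Of the wider pathway lists in AT2 cells, Fzd5, a Frizzled receptor, was the only gene called, rising at day 21 from 25.5 to 50.2 CPM in the knockout (0.87 ± 0.22, adjusted p = 0.0294). The Fzd5 call was lost without β1 fl/fl mouse 1 (adjusted p = 0.125) or 3 (0.158) or β1 AT2-KO mouse 3 (0.0852). That was 1 of 27 WNT genes tested of the 63 listed (median log2 0.22), where 4.00% of all genes were called, beside 0 of 17 BMP genes tested of 37 (median 0.11). At day 7, 0 of 10 WNT and 0 of 10 BMP genes tested were called (medians 0.00 and 0.12), while over all genes tested the median lay between -0.01 and 0.02 in every comparison.

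In the endothelium, Bmp4 was also higher in knockout mice at day 7. Bmp4 was at 7.03, 7.30 and 10.4 CPM in β1 fl/fl mice given LPS, from 35, 37 and 51 UMIs, and at 23.6, 21.5 and 25.1 CPM in β1 AT2-KO mice given LPS, from 86, 81 and 91 UMIs. The groups did not overlap (8.23 ± 1.86 against 23.4 ± 1.78 CPM) and the log2 fold change was 1.48 ± 0.25 (adjusted p = 0.00891). Without β1 fl/fl mouse 2 the value was 1.40 with an adjusted p of 0.0610, and within the Gpihbp1 gate, which held 22.5% of control and 33.6% of knockout endothelial cells, it was 1.26 with 0.0556. Within the Gpihbp1 and Car4/Ednrb gates 0.869% and 0.606% of genes were called in this comparison. AT2 markers summed to 759 and 1086 CPM in these endothelial cells, and mesenchymal markers to 124 and 266 CPM, and their part in the difference was not tested. At day 21 Bmp4 was at 16.1, 26.6 and 13.7 CPM in controls and 10.0, 20.6 and 11.8 CPM in knockouts, which overlapped, and the difference between the 2 genotype effects, -1.75 ± 0.52, did not pass (adjusted p = 0.136).

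No other endothelial member passed the threshold between genotypes at day 7. Wnt5a came from 4, 4 and 4 UMIs in controls (0.803, 0.789 and 0.814 CPM) and 9, 9 and 10 UMIs in knockouts (2.47, 2.39 and 2.75 CPM). These groups did not overlap, and the Wnt5a log2 fold change of 1.60 ± 0.41 missed the threshold (edgeR, adjusted p = 0.0667). Over whole libraries Wnt5a had 19 and 35 UMIs, a log2 ratio of 1.30 with a counting interval of 0.48 to 2.21. Id1, at 442, 431 and 421 CPM in controls and 496, 522 and 455 CPM in knockouts, also without overlap, differed by 0.16 ± 0.08 (edgeR, adjusted p = 0.372). Rspo3, Bmp6, Bmpr2 and Axin2 had log2 fold changes of -0.47, 0.22, 0.19 and 0.13, with adjusted p from 0.466 to 0.812. 1 of the 7 members tested was called, where 2.32% of 11649 genes were. Among the pathway lists, Tcf7, a transcription factor of the WNT pathway, rose from 5.88 to 23.0 CPM (1.93 ± 0.18, adjusted p = 1.80e-04) and Id2, a relative of Id1, from 19.4 to 29.3 CPM (0.57 ± 0.13, adjusted p = 0.0420). They were 1 of 30 WNT and 1 of 21 BMP genes tested, with list medians of 0.01 and 0.06. The Id2 call held in 5 of 16 alternatives and was lost without any 1 of the 6 LPS mice or PBS mouse 3 (adjusted p = 0.0544 to 0.141 across these mice).

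The endothelium of LPS-treated knockouts differed from that of PBS-treated knockouts in 5 of 7 members tested, in a comparison where 26.9% of 11649 genes were called, 14.5% higher and 12.4% lower after LPS. Members called were 2 higher and 3 lower. The knockout mice given LPS are the same 3 mice as in the comparison above, so the 2 comparisons share them. Id1 was at 569, 626 and 656 CPM in mice given PBS and 496, 522 and 455 CPM in mice given LPS, without overlap, and it fell by 0.43 ± 0.08 on the log2 scale (adjusted p = 0.00247). Bmp6 was at 340.5, 397 and 451 CPM with PBS and 316, 322 and 213 CPM with LPS, also without overlap (-0.59 ± 0.17, adjusted p = 0.0238). The Bmp6 call was lost without LPS mouse 3 (adjusted p = 0.0617) or PBS mouse 2 (0.0610) or 3 (0.0838).

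Rspo3 was lower after LPS, and Bmp4 and Wnt5a were higher. Rspo3 was at 9.38, 8.40 and 16.3 CPM with PBS and 6.59, 7.71 and 5.78 CPM with LPS (-0.85 ± 0.28, adjusted p = 0.0414). Its call was lost without PBS mouse 3 (log2 -0.53, adjusted p = 0.164), without LPS mouse 1 (0.0902), 2 (0.0574) or 3 (0.120), and without day 7 β1 fl/fl mouse 2, which shares the fit (0.0584). Within the Car4/Ednrb gate, where Rspo3 was higher and which made up 14.8% of PBS and 8.69% of LPS endothelial cells, Rspo3 differed by -0.04 (adjusted p = 0.970). Bmp4 was at 11.4, 9.60 and 19.5 CPM with PBS and 23.6, 21.5 and 25.1 CPM with LPS (0.70 ± 0.23, adjusted p = 0.0429). Its call held in 6 of 16 alternatives, was lost without any 1 of the 3 LPS mice, of β1 fl/fl mice 1 and 2 of the fit or of PBS mice 1 (adjusted p = 0.112) and 2 (0.138), and within the Gpihbp1 gate the difference was 0.45 (adjusted p = 0.300). Wnt5a came from 5, 2 and 4 UMIs with PBS and 9, 9 and 10 with LPS (1.75 ± 0.41, adjusted p = 0.00872, or 0.0585 by DESeq2). Grem1 had 0 of 20509889 endothelial UMIs with PBS and 16 UMIs with LPS (1.15 CPM), 7.88-fold a floor of 3 counts for the PBS library. In mesenchyme of the same 2 libraries, Grem1 was at 0 with PBS and 131 CPM with LPS. The sum of mesenchymal markers in endothelium, 41 CPM with PBS and 266 CPM with LPS, moved the same way as Wnt5a and Grem1. Its part in either was not tested.

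Within the gates, where 11.9% (Gpihbp1) and 5.21% (Car4/Ednrb) of genes were called, Id1 fell in the Gpihbp1 cells (-0.45, adjusted p = 0.0192) and differed by -0.17 in the Car4/Ednrb cells (adjusted p = 0.530). Bmp6 differed by -0.72 in the Gpihbp1 cells (adjusted p = 0.00715) and by -0.60 in the Car4/Ednrb cells (adjusted p = 0.147). The difference between the gates was not tested. Bmpr2, at 838.5, 865 and 936.5 CPM with PBS and 944, 899 and 687.5 CPM with LPS, overlapped (-0.16 ± 0.13, adjusted p = 0.393), and so did Axin2 (0.12 ± 0.21, adjusted p = 0.709).

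The fall of Id1 was accompanied by that of other BMP targets. Of 6 BMP targets listed, 5 were tested and 4 fell, where 12.4% of all genes were called lower, with a list median of -0.76 on the log2 scale against 0.02 over all genes. Id3, from the Id family, went from 1287 to 821 CPM (-0.75 ± 0.11, adjusted p = 4.56e-04), and the inhibitory SMADs Smad6 (519.5 to 289 CPM, -0.95 ± 0.11, 2.06e-04) and Smad7 (283 to 180 CPM, -0.76 ± 0.11, 5.53e-04) fell with it. The fourth was Atoh8, a transcription factor (12.8 to 7.08 CPM, -0.95 ± 0.29, 0.0284), whose call was lost without LPS mouse 1 (adjusted p = 0.0509), 2 (0.0862) or 3 (0.0587), without PBS mouse 2 (0.113) and within the Gpihbp1 gate (0.103). Of 9 BMP receptors, 7 were tested, 1 rose and 3 fell, including the endothelial receptor Acvrl1 (1804 to 1220 CPM, -0.67 ± 0.10, 6.78e-04) and the co-receptor Eng (1672 to 1052 CPM, -0.77 ± 0.10, 2.58e-04). Bmp2, a BMP ligand, rose from 1.92 to 6.64 CPM (1.60 ± 0.54, 0.0465), a call lost without LPS mouse 3 (log2 1.03, adjusted p = 0.214), PBS mouse 2 (0.136) or 3 (0.140) or any 1 of the β1 fl/fl mice of the fit (0.0601 to 0.0673). Over the 21 BMP genes tested of 37, 6 rose and 7 fell, where 14.5% of all genes were called higher and 12.4% lower. Their median was -0.20. Within the Car4/Ednrb gate the calls of Smad6 (adjusted p = 0.152), Smad7 (0.888) and Acvrl1 (0.330) were lost.

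The WNT genes moved in both directions in that comparison. The inhibitors Nkd1 (407 to 246 CPM, -0.83 ± 0.10, adjusted p = 1.93e-04) and Nkd2 (42.3 to 12.4 CPM, -1.87 ± 0.19, 8.00e-05), which are WNT targets and bind Dishevelled, fell, and the receptor Fzd6 rose (47.5 to 86.6 CPM, 0.77 ± 0.09, 2.34e-04). Within the Car4/Ednrb gate the Fzd6 call was lost (adjusted p = 0.0813). Of 6 WNT targets, 4 were tested, 1 rose and 2 fell, and their median was -0.50. Over the 30 WNT genes tested of 63, 5 rose and 5 fell, where 14.5% of all genes were called higher and 12.4% lower. Both counts lay near these shares, and the median was 0.02, the median of all genes.

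**Figure D4:**
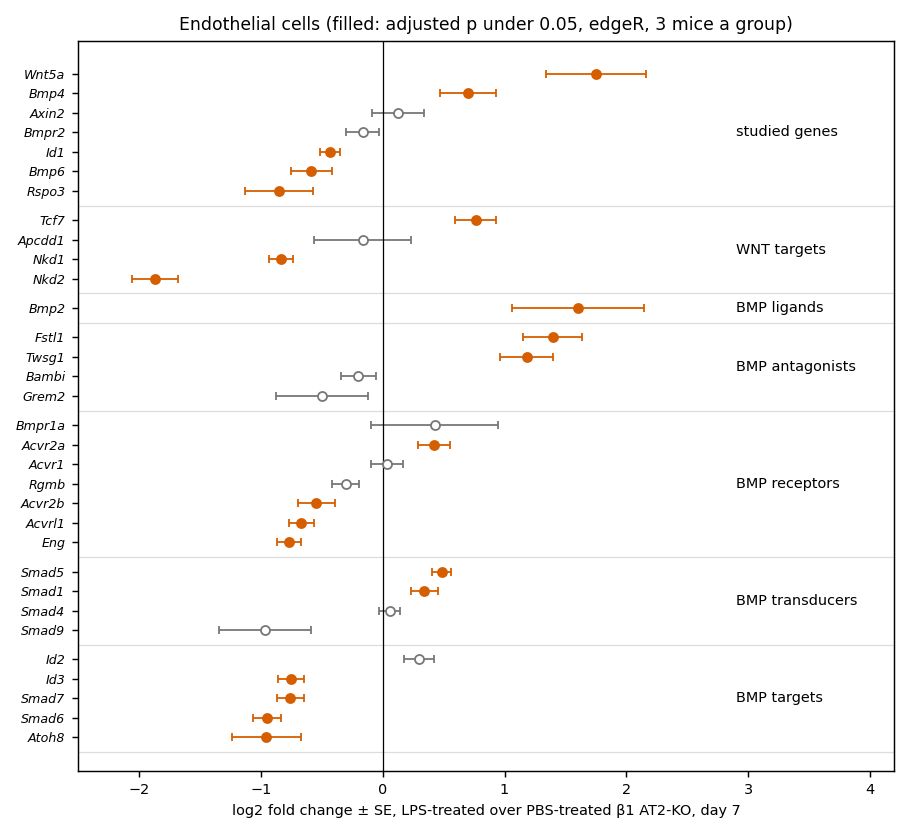
Log2 fold change with its SE in endothelial cells of day 7 β1 AT2-KO mice given LPS against PBS (3 mice each) for the 7 members tested and for genes of the WNT target and BMP lists, with filled points where the adjusted p was under 0.05. Id1, Id3, Smad6, Smad7, Acvrl1 and Eng lie below 0, and Bmp4 and Wnt5a above it.

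At day 21, Bmp6 was the member called in endothelium, at 404, 485 and 411 CPM in β1 fl/fl mice and 234, 326 and 284 CPM in β1 AT2-KO mice, without overlap (-0.58 ± 0.13, adjusted p = 0.0262). It was 1 of 4 members tested, where 1.30% of 7311 genes were called. The call was lost without β1 fl/fl mouse 2 (adjusted p = 0.134) and without β1 AT2-KO mouse 1 (0.128) or 3 (0.173), and with hashtags assigned by the largest tag (0.691). Within the Gpihbp1 gate Bmp6 differed by -0.20 (adjusted p = 0.897), and that gate held 24.7% of control and 18.6% of knockout endothelial cells. In this comparison 0.829% of genes were called within the Gpihbp1 gate and 0.493% within the Car4/Ednrb gate. Bmpr2, Id1 and Rspo3 were not called, with log2 values of 0.10 ± 0.10, -0.14 ± 0.11 and 0.28 ± 0.34. Rspo3 was at 14.3, 22.5 and 21.8 CPM in controls and 23.4, 24.1 and 23.7 CPM in knockouts, without overlap. The Car4/Ednrb gate was 30.4 and 40.0% of control and knockout endothelial cells. Smad6 fell from 452 to 272 CPM (-0.73 ± 0.13, adjusted p = 0.00327), 1 of 14 BMP genes tested (list median -0.15), and 0 of 14 WNT genes were called (median 0.14). The Smad6 call was lost without β1 AT2-KO mouse 3 (adjusted p = 0.0700), with hashtags assigned by the largest tag (0.0982) and within the Gpihbp1 (log2 -0.69, 0.209) and Car4/Ednrb gates (-0.40, 0.656).

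The difference between the day 7 and day 21 genotype effects was called in endothelium for 0 of 6 members, where 0.794% of 11715 genes were called by edgeR. The largest values were -1.75 ± 0.52 for Bmp4 and -0.81 ± 0.24 for Bmp6 (adjusted p = 0.136 and 0.133). Of the pathway genes, Smad6 (-0.93 ± 0.17, adjusted p = 0.0164) and Tcf7 (-2.31 ± 0.47, adjusted p = 0.0259) were called. Smad6 lost the call without day 21 β1 AT2-KO mouse 2 (adjusted p = 0.0570) or 3 (0.0734). It also lost it within the Gpihbp1 and Car4/Ednrb gates, with an adjusted p of up to 0.551 over its alternatives. Tcf7 lost the call without mouse 2 of either day 7 LPS group (0.0525 and 0.0545), day 21 β1 fl/fl mouse 2 (0.0516) or 3 (0.111), or day 21 β1 AT2-KO mouse 1 (0.0543) or 2 (0.0760). It also lost it within the Gpihbp1 gate and at 1000 genes per cell, with an adjusted p of up to 0.432 over its alternatives.

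In the mesenchyme no member passed in any genotype comparison. At day 7, Bmp4 was at 32.0, 21.2 and 15.2 CPM in controls and 35.6, 46.3 and 39.5 CPM in knockouts. The groups did not overlap, and the log2 fold change was 1.16 ± 0.38 (edgeR, adjusted p = 0.585). Grem1 was at 24.01, 122.8 and 119.6 CPM in controls and 117, 125 and 248 CPM in knockouts, which overlapped (0.86 ± 0.41, adjusted p = 0.872). Wnt5a overlapped as well, at 56.02, 165 and 76.2 CPM against 102, 81.7 and 98.3 CPM (-0.02 ± 0.35). Rspo3 was at 8.003, 55.1 and 80.9 CPM in controls and 20.4, 73.6 and 47.4 CPM in knockouts, and Bmpr2 at 152, 254 and 163 CPM and 107, 155 and 166 CPM, with overlap for both. Id1, Bmpr2 and Rspo3 had log2 values of -0.63 ± 0.43, -0.32 ± 0.26 and -0.19 ± 0.46. By edgeR 0.117% of 5140 genes were called, with 306 at an unadjusted p under 0.05, and DESeq2 called 14. None of 20 BMP and 21 WNT genes tested was called (medians 0.13 and 0.04). Wnt2, under the filter, was at 0, 0 and 11.7 CPM in controls and 20.4, 13.6 and 15.8 CPM in knockouts. Over whole libraries, with 58 and 70 UMIs, Wnt2 was at 26.5 CPM in controls and 23.6 CPM in knockouts, a log2 ratio of -0.17 with a counting interval of -0.69 to 0.36, so the direction of the tagged mice was not held.

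At day 21 the mesenchyme held 13 to 23 cells per control mouse and 12 and 13 in the 2 knockout mice with enough cells, and 0 of 2 members tested were called, where edgeR called 0.196% of 1534 genes, with 151 at an unadjusted p under 0.05, and DESeq2 called 14. Id1 was at 57.3, 0 and 132 CPM in controls and 265 and 34.6 CPM in knockouts (1.08 ± 1.05). Wnt5a was at 172, 13.2 and 83.3 CPM against 61.2 and 173 CPM (0.36 ± 0.83). Over whole libraries, from 276 and 82 UMIs, Wnt5a was at 205 CPM in controls and 137 CPM in knockouts, the opposite direction, with a log2 ratio of -0.57 and a counting interval of -0.95 to -0.22. Grem1 was at 0 in the 3 controls and at 0 and 208 CPM in the knockouts. None of the 7 BMP and 6 WNT genes tested was called. The difference of the genotype effects was called for 0 of 3742 genes in mesenchyme by edgeR, with 327 at an unadjusted p under 0.05, and for 8 by DESeq2.

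Over whole libraries, which add the cells without a usable tag, Grem1 in mesenchyme was read from the day 7 LPS libraries above all. It had 164 UMIs (74.8 CPM, in 54 of 395 cells) in day 7 β1 fl/fl and 389 UMIs (131 CPM, in 52 of 553 cells) in day 7 β1 AT2-KO mice given LPS. With PBS it had 0 of 342617 UMIs in 103 cells, and the knockout LPS level was 14.95-fold a floor of 8.76 CPM. That ratio takes UMIs as independent, although 1 knockout LPS cell held 35 of the 389. By cells, Grem1 was found in 9.40% with LPS (interval 7.10 to 12.1) and 0% with PBS (0 to 3.52). In cells thinned to equal depth the shares were 5.14% (3.38 to 7.44) and 0% (0 to 4.11), and these intervals overlapped. At day 21 there was 1 UMI (0.743 CPM) in the controls and 12 UMIs (20.1 CPM) in the knockouts, all 12 in 1 cell. Endothelium of the 2 day 7 LPS libraries held 7 and 16 Grem1 UMIs in 6503 and 4774 cells. These values compare single libraries, and their intervals cover counting error only.

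Rspo3 in mesenchyme had 109, 105 and 0 UMIs in day 7 control LPS, knockout LPS and knockout PBS libraries (49.7, 35.3 and 0 CPM). At day 21 it had 11 and 14 UMIs (8.17 and 23.4 CPM). The knockout LPS level was 4.04-fold a PBS floor of 8.76 CPM, although 1 LPS cell held 18 of the 105 UMIs. By cells, Rspo3 was found in 9.40% with LPS (interval 7.10 to 12.1) and 0% with PBS (0 to 3.52). In cells thinned to equal depth the shares were 2.57% (1.37 to 4.35) and 0% (0 to 4.11), and these intervals overlapped. Bmp4 was lower with LPS than with PBS in knockout mesenchyme, at 58.2 CPM against 120 CPM (log2 ratio -1.05, exact 95% interval -1.54 to -0.51), and Wnt5a at 112 against 158 CPM (-0.51, -0.91 to -0.05). Wnt2, at 23.6 and 29.2 CPM, did not differ beyond counting error (-0.37, -1.27 to 0.81). The Pi16/Dpt gate made up 17.7% of knockout mesenchymal cells with LPS (98 cells) and 23.3% with PBS (24 cells), and the Tcf21/Npnt gate 23.5% (130 cells) and 20.4% (21 cells). In AT2 cells, Bmp4 was at 58.6 CPM with LPS and 27.6 CPM with PBS, the latter from 7 UMIs (0.99, 0.01 to 2.42).

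**Figure D5:**
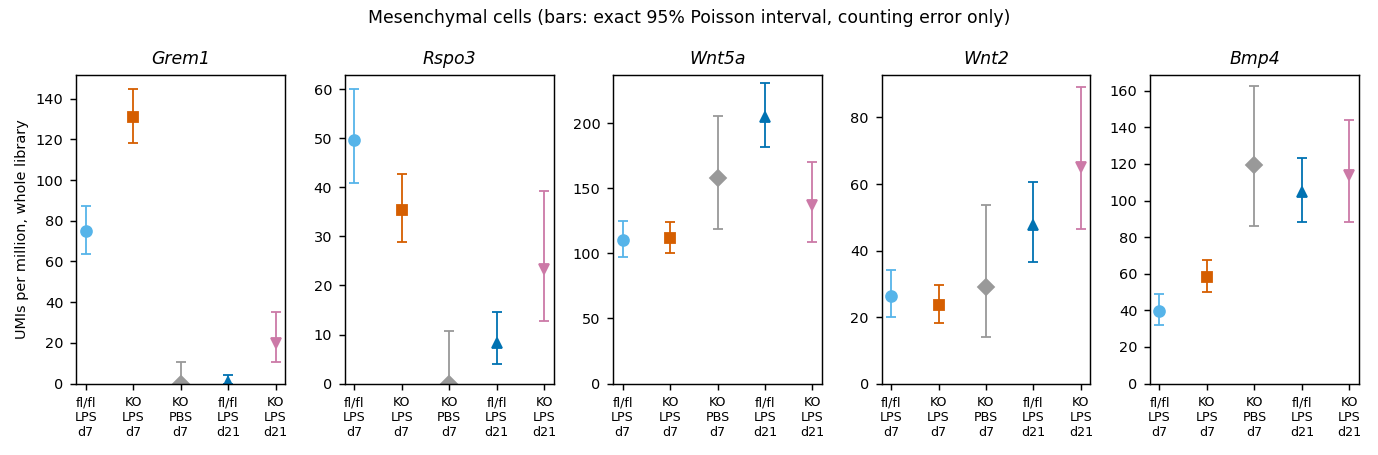
Whole-library CPM of Grem1, Rspo3, Wnt5a, Wnt2 and Bmp4 in mesenchymal cells of the 5 libraries, with exact 95% Poisson intervals. Grem1 and Rspo3 are at 0 in the day 7 PBS library, where Bmp4 is at 120 CPM.

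Over the 15 pools of class and library, the genes closest to each member were ranked by Pearson's r, which describes pools that share libraries and are dominated by the class. Wnt5a lay closest to Kcnj8 (0.999), Plac9b (0.999) and Naalad2 (0.998), and Wnt2 to Slc7a10 (0.998), Gabra3 and Scube2 (0.996 each). Wnt7b lay closest to Krt7 (0.967), 0610040J01Rik and Sfn (0.961 each), and Axin2 to Rrad (0.963), Galnt2 (0.961) and Limch1 (0.956). Bmp6 lay closest to Ccm2l (0.997), Sox7 and Inpp5d (0.996 each), Bmpr2 to Tmod3 (0.991), Cttnbp2nl (0.990) and Arap2 (0.989), and Id1 to Polr2g (0.964), Hmbox1 and Abi3 (0.963 each). Bmp4 lay closest to Nfix (0.943), 1810010H24Rik (0.937) and Osbpl1a (0.928), and Rspo3 to Serpina3g (0.912), Mtx2 (0.896) and Tns3 (0.865). Grem1 lay closest to Saa3 (0.967), an acute phase gene, Sfrp2 (0.916), a secreted WNT antagonist, and Has2 (0.905), a hyaluronan synthase.

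The rest of each pathway was read from the same classes as mean CPM of 5′ UMIs, which are not scaled for length, so the values place genes in a class and give no order between genes. In AT2 cells the BMP antagonists named were Bambi (94.1), Twsg1 (26.4) and Fstl1 (3.95), the BMP ligands Bmp2 (35.3), Bmp3 (25.2) and Bmp5 (21.2), and the BMP targets Id2 (155), Id3 (101) and Smad7 (36.7). Of the WNT lists, Lrp6 (76.1), Ryk (74.0) and Fzd5 (33.3) were read among the receptors and Nkd1 (197) and Sp5 (25.1) among the targets in AT2 cells.

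In endothelium the BMP receptors Acvrl1 (1561) and Eng (1465), the targets Id3 (1030.5), Smad6 (349) and Smad7 (211), the WNT receptor Fzd4 (241) and the BMP ligand Bmp2 (3.52) were read. In mesenchyme the antagonists Fstl1 (1004) and Twsg1 (194), the ligands Bmp5 (134) and Bmp3 (102), and the WNT antagonists Sfrp1 (247) and Sfrp4 (55.01) were read, with Wnt4 (48.0) and Wnt11 (40.1) beside Wnt2 and Wnt5a.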

How the data were processed

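Cells of the 5 libraries were profiled with a 5′ droplet kit. The deposited values are raw UMI counts per gene and barcode made by the authors with Cell Ranger 3.1 on mm10. The authors' own doublet removal and clusters were not used. Gm42418 (1.00 to 1.77% of UMIs) was dropped. Barcodes were assigned to mice by a single hashtag above 4 times background. Cells with several tags (3.86 to 9.71%) were left out of mice as doublets and kept in whole-library sums. Library pairs shared 15 to 102 barcodes (0.675 to 1.41% of the smaller).

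Counts were summed per mouse and class (10 cells or more) and fitted with edgeR 4.0.16 in R 4.3.3 (TMM, filterByExpr, quasi-likelihood), 1 fit for day 7, 1 for day 21 and 1 over the 5 groups for the difference of genotype effects. Classes and gates were compared by exact sign-flip permutation on log2(CPM + 10). The arterial, venous, lymphatic, Tcf21/Npnt, Pi16/Dpt and Notch3/Cspg4/Higd1b gates also needed at least 2 UMIs of their genes, and the Acta2/Tagln gate at least 5. The Notch3/Cspg4/Higd1b and Acta2/Tagln gates had no Tcf21, Npnt, Pi16 or Dpt, and the latter no Higd1b. The venous gate had no Gja5, Bmx, Prox1 or Mmrn1, and the fibroblast gates had none of each other's genes. Alternatives were DESeq2 1.42.0, its size factors, no filter, hashtag assignment by largest tag, 1000 genes per cell, stricter gates, pseudocounts of 1 and 50, and omission of mice or libraries. Fits within the capillary gates were chosen after seeing the data. The members, lists and gates were chosen with earlier results of these data known. Named genes were all members, listed genes called (up to 8 by p), the 3 highest of each list per class (a selection is printed) and the 3 most like each member.

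On simulated counts for AT2 cells at day 7 (4715 genes), 55 of 100 genes changed by 1 and 87 of 100 changed by 2 on the log2 scale were recovered; for mesenchyme at day 7 (5140 genes), 24 and 82. Median UMIs per passing cell were 2197.5 to 5248. Shares were thinned to 1500 UMIs. Intervals and floors (3 counts) cover counting error only. Overlap of groups was read for named genes only, and the share of all genes without overlap was not counted. Groups without overlap also occurred among members that were not called. Of the gene IDs, 99.62% matched GENCODE M21.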

Additional observations from a re-analysis of the deposited data

Results flagged for a closer look

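3 genes showed a genotype effect that differed between day 7 and day 21, by the edgeR interaction test. Bmp4 in AT2 cells gave a difference of effects (day 21 minus day 7) of -2.20 on the log2 scale, Smad6 in endothelium -0.93, and Tcf7 in endothelium -2.31. The Smad6 call was lost within both capillary gates, and the Tcf7 call within the Gpihbp1 gate. Library and the addition of EPCAM+ cells at day 21 cannot be told apart from the day. The sex balance of the groups also differed between the days, with all day 7 LPS mice split by genotype and the day 21 groups mixed, and its part was not tested.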

How the results depend on the processing

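Bmp4 in AT2 cells kept its call for the difference of genotype effects in 18 of 18 alternatives (adjusted p 7.51e-05 to 0.0258), and DESeq2 gave it no adjusted p. The calls of Bmp4 within day 7 and within day 21 each held in 7 of 13. In AT2 cells at day 7, DESeq2 called 51 genes and 0 members, no filter 154 genes and 2 members, and largest-tag hashtags 0 members. At day 21 in AT2 cells, members called were 2 with no filter, 0 with largest-tag hashtags and 0 with stricter gates. For the difference of effects in AT2 cells, genes called were 106 with no filter and 22 with largest-tag hashtags. In endothelium at day 7 between genotypes, genes called were 442 with no filter, 83 in the Gpihbp1 gate and 47 in the Car4/Ednrb gate, with 0 members in either gate. For LPS against PBS, genes called were 1139 and 404 in these gates with 2 and 0 members, and members were 2 by DESeq2 and 3 with stricter gates. At day 21 in endothelium, genes called were 55 by DESeq2, 268 with no filter, 39 with largest-tag hashtags and 24 and 14 in the gates, and members were 0 under largest-tag hashtags, 1000 genes per cell and both gates. For the difference of effects in endothelium, genes called were 190 by DESeq2, 306 with no filter, 56 with largest-tag hashtags, 61 at 1000 genes per cell and 9 and 30 in the gates, and members 2 with no filter. In mesenchyme, genes called were 14 by DESeq2 and 209 with no filter at day 7, 14 and 43 at day 21 (1 member with no filter), and for the difference of effects 8 by DESeq2, 77 with no filter (1 member) and 1 with largest-tag hashtags. Smad1 after LPS turned to -0.0776 in the Car4/Ednrb gate. Without 1 library, 12 to 23 of 30 class comparisons were called, 12 without the day 7 knockout LPS library and 19 without the day 7 control library. The cause of these changes was not tested.

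With 1 mouse left out, genes called ranged from 40 to 106 (members 0 to 1) in AT2 cells at day 7, 164 to 327 (0 to 1) at day 21 and 21 to 56 (1 to 1) for the difference of effects. The member called within a day was not always Bmp4. Without β1 fl/fl mouse 3 of the day, it was a member lower in the knockout at day 7 and 1 higher at day 21, and Bmp4 was not called. In endothelium the ranges were 89 to 357 (0 to 1) between genotypes at day 7, 2313 to 3244 (2 to 5) for LPS against PBS, 40 to 150 (0 to 1) at day 21 and 33 to 124 (0 to 1) for the difference of effects. In mesenchyme they were 3 to 34, 1 to 8 and 0 to 4, with 0 members. No paired analysis was possible because the labels give no replicate numbers shared between groups. Stricter gates for day 21 mesenchyme and a test of LPS against PBS in AT2 cells and mesenchyme were not run for want of tagged cells. Low counts limit Wnt2, Wnt5a, Wnt7b and Axin2.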
